A study of Mus musculus with 9 samples.

Results

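The mRNAs of 10 genes that mark the blood vessels of the brain were followed through a CELF2 RNA immunoprecipitation of newborn mouse cortex. Of these genes, 8 mark endothelial cells (*Cldn5*, *Cdh5*, *Esam*, *Pecam1*, *Flt1*, *Kdr*, *Tek* and *Slco1c1*) and 2 mark pericytes (*Pdgfrb* and *Rgs5*). They were taken by symbol as marker genes, and all their RefSeq transcript rows in the count table were summed per gene. The 10 genes are among 21254 protein-coding genes with a row, and all 10 were among the 15267 that passed the filter of at least 0.5 CPM (counts relative to library size) in at least 3 libraries. The study asked which cytoplasmic mRNAs are bound by CELF2, an RNA-binding protein of neurons, when 1 allele carries the R493H change. All 9 libraries, controls included, came from cortices of P0 mice heterozygous for CELF2 p.R493H (KI). There were 3 libraries each of CELF2-KI RIP (10 µg of rabbit anti-CELF2, incubated for 3 hours), IgG RIP (normal rabbit IgG in the same amount and for the same time) and input, an aliquot of the cytoplasmic fraction kept back before the antibody. No library came from a wild-type mouse, so the R493H allele itself was not compared. The labels call the samples biological replicates without saying how many animals went into each, so the p-values measure the spread between these preparations.

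Endothelial cells line the brain's capillaries and are sealed to each other by tight and adherens junctions, which together with selective transporters form the blood-brain barrier. Vascular endothelial growth factor (VEGF) and angiopoietin receptors on these cells drive vessel growth and stability, and the vessels of the cortex are still being built around birth. Pericytes wrap the capillaries and are recruited by platelet-derived growth factor released from the endothelium. In a lysate of whole cortex these mRNAs are a small admixture to those of neurons and glia. Fewer vascular cells and less of an mRNA per cell cannot be told apart in such a lysate.

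The libraries held 15919600 to 20052716 estimated counts in CELF2-KI RIP, 17365561 to 28773130 in IgG RIP and 69125700 to 105116427 in input. The 45S rRNA precursor took 34.9%, 32.9% and 10.8% of the counts of IgG RIP 1, 2 and 3, and 0.405% to 1.76% in the other libraries. Values are CPM of protein-coding genes on TMM-scaled library sizes, which remove differences in total but not in transcript length, so levels are compared between libraries and not between genes. The least covered value among the 10 genes was *Slco1c1* in IgG RIP 1, with 113 counts. Vascular mRNA was present in all 9 libraries. The 10 genes summed to between 408 and 506 CPM in CELF2-KI RIP, between 336 and 620 CPM in IgG RIP and between 460 and 638 CPM in input.

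Of the 10 genes, *Cdh5* was lower with the CELF2 antibody than in IgG RIP and in input, *Cldn5* was lower than in input, and none was called higher in any comparison. Calls required a Benjamini-Hochberg FDR under 0.01 over all tested genes in edgeR's quasi-likelihood test and at least a 2-fold change. Over IgG RIP, 1 of the 10 genes was called lower and 0 higher, where 13.6% of all tested genes were called lower and 13.4% higher. The count of 0 higher was the same with DESeq2's Wald test, and at an unadjusted p under 0.05 in edgeR it was 1, *Rgs5*, where 30.6% of all tested genes were higher at that threshold. Over input, 2 of the 10 were called lower and 0 higher, against 15.5% and 14.6% of all tested genes. DESeq2 gave the same 0 higher, as did an unadjusted p under 0.05 in edgeR, which 37.2% of all tested genes passed on the higher side. Lower than both controls was 1 of 10 genes, against 9.54% of all tested genes. Each count of called genes lay within 2 genes of what the share of all genes would give for 10. The counts higher at an unadjusted p under 0.05 in edgeR, 1 over IgG RIP and 0 over input, lay further below their shares of 30.6% and 37.2%. Taken as a list, the 10 genes had a median log2 fold change of -0.00 against IgG RIP and -0.08 against input, where all tested genes had medians of -0.06 and 0.19.

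**Figure D1:**
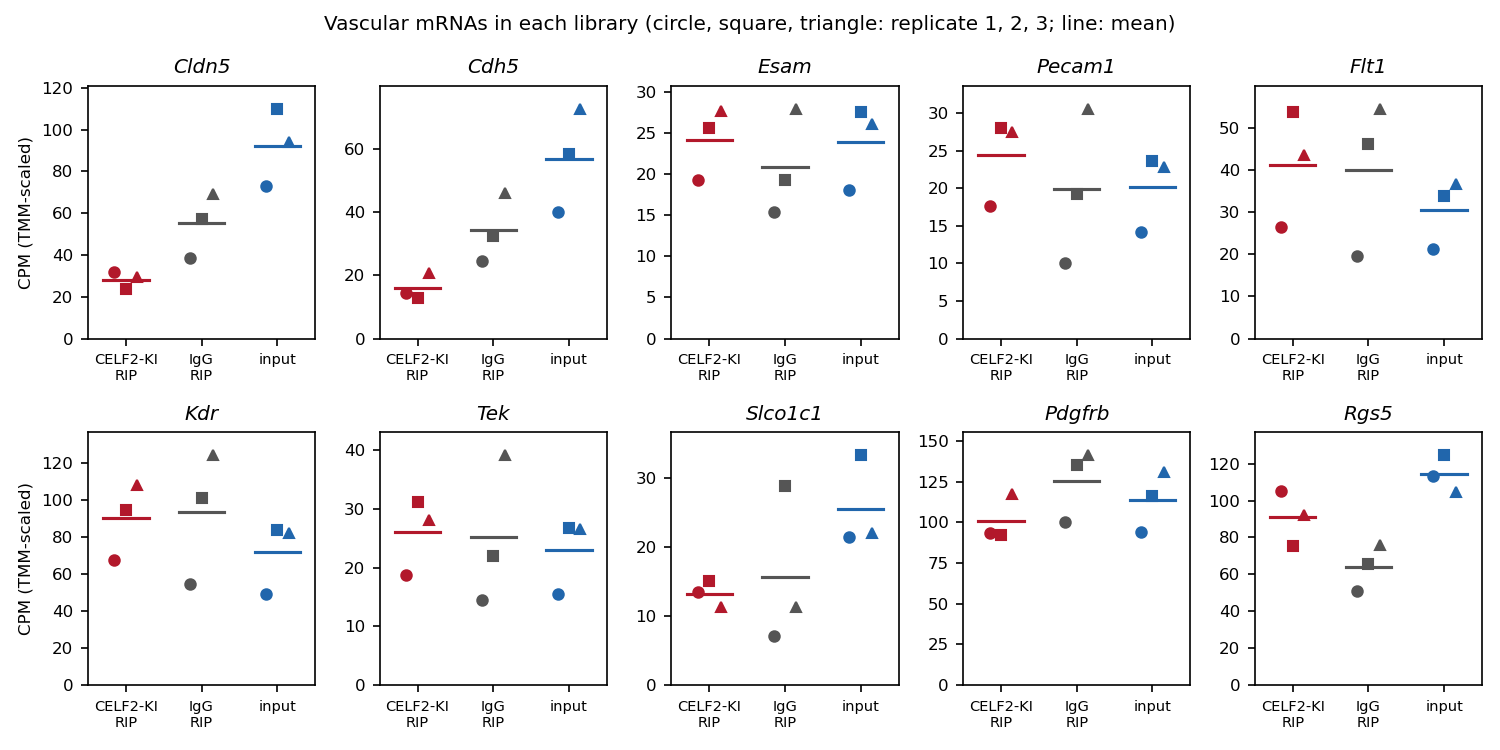
Level of each of the 10 vascular mRNAs in each library, in CPM on TMM-scaled library sizes (y axis, from 0), for CELF2-KI RIP, IgG RIP and input (x axis). Circles, squares and triangles are replicates 1, 2 and 3 and lines are means. In the panels of *Cldn5* and *Cdh5* all 3 CELF2-KI RIP libraries lie below all 6 controls, and in those of *Esam*, *Pecam1*, *Flt1*, *Kdr* and *Tek* the circle is the lowest point in each condition.

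*Cldn5* encodes claudin-5, the main tight junction protein of brain endothelium. It is a gene on chromosome 16 (18776847 to 18778262, GRCm38.p6) with a single transcript row. *Cldn5* was at 31.7, 23.7 and 29.4 CPM in CELF2-KI RIP 1, 2 and 3, at 38.7, 57.4 and 69.4 CPM in IgG RIP and at 73.0, 110 and 94.1 CPM in input. The 3 conditions did not overlap and lay in the order CELF2-KI RIP, IgG RIP, input from low to high. Against input the log2 fold change was -1.71 (SE 0.23, FDR 0.000125 in edgeR), a call. Over IgG RIP it was -0.96 (SE 0.23, FDR 0.00473 in edgeR), which passed the FDR and fell just short of 2-fold. With DESeq2's size factors, where the value was -1.03, it was called.

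*Cdh5* encodes VE-cadherin, the adherens junction protein of endothelial cells. It lies on chromosome 8 (104101613 to 104144504) and overlaps the noncoding *Gm29682*, which had at most 5 counts in any library. *Cdh5* was at 14.5, 12.9 and 20.6 CPM in CELF2-KI RIP, against 24.3, 32.4 and 46.0 CPM in IgG RIP and 39.8, 58.3 and 72.5 CPM in input. All CELF2-KI RIP libraries lay below all controls, while IgG RIP 3 lay within the range of the inputs. The fall amounted to -1.10 on the log2 scale against IgG RIP (SE 0.29, FDR 0.00881 in edgeR) and to -1.83 against input (SE 0.29, FDR 0.000379 in edgeR). The call over IgG RIP was close to the threshold. It was lost without CELF2-KI RIP 1 or 2, without IgG RIP 2 or 3 and without input 3, with values from -0.83 (FDR 0.0269 in edgeR without IgG RIP 3) to -1.13, and in a fit of the 6 CELF2-KI and IgG RIP libraries alone (-1.16, FDR 0.0127 in edgeR). It was lost too with transcript rows of the version in the gene table (-1.22, FDR 0.0104 in edgeR) and with the highest-count row of each gene (-1.23, FDR 0.0137), and *Cldn5* was called over IgG RIP in its place in both. Over input both junction genes stayed called in all 9 fits that left out 1 library.

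*Esam* and *Pecam1* encode adhesion molecules of the immunoglobulin superfamily at the contacts between endothelial cells, and neither differed detectably between conditions. *Esam* was at 19.3, 25.6 and 27.8 CPM in CELF2-KI RIP, against 15.4, 19.3 and 28.0 CPM in IgG RIP and 18.0, 27.6 and 26.2 CPM in input. *Pecam1* was at 17.6, 28.0 and 27.5 CPM in CELF2-KI RIP, against 10.1, 19.2 and 30.5 CPM in IgG RIP and 14.2, 23.6 and 22.8 CPM in input. The conditions overlapped for both genes. The log2 fold change over IgG RIP was 0.21 (SE 0.25, FDR 0.50 in edgeR) for *Esam* and 0.29 (SE 0.37, FDR 0.531) for *Pecam1*. Over input the values were 0.02 (SE 0.25, FDR 0.955 in edgeR) for *Esam* and 0.27 (SE 0.36, FDR 0.537) for *Pecam1*. The 4 junction and contact genes thus included both called members and 2 that lay slightly above 0 over both controls, with the other sign under some of the alternatives tried.

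The receptors lay on the other side of 0 over input from the called junction genes, without a call. *Flt1* (VEGF receptor 1, which also acts as a trap for the ligand) was at 26.5, 53.7 and 43.6 CPM in CELF2-KI RIP, against 19.6, 46.2 and 54.5 CPM in IgG RIP and 21.3, 33.8 and 36.6 CPM in input. *Kdr* (VEGF receptor 2, the main signalling receptor of endothelial growth) was at 67.6, 94.6 and 108 CPM in CELF2-KI RIP, against 54.5, 101 and 124 CPM in IgG RIP and 49.4, 83.7 and 82.0 CPM in input. *Tek* (TIE2, the angiopoietin receptor) was at 18.7, 31.2 and 28.1 CPM in CELF2-KI RIP, against 14.5, 22.0 and 39.1 CPM in IgG RIP and 15.5, 26.8 and 26.6 CPM in input. For all 3 receptors the conditions overlapped, and replicate 1 was the lowest library in each of them. Over IgG RIP the log2 fold changes were 0.04 for *Flt1* (SE 0.38, FDR 0.933 in edgeR), -0.05 for *Kdr* (SE 0.31, FDR 0.904) and 0.04 for *Tek* (SE 0.36, FDR 0.928), and each had the other sign under some of the alternatives tried. Over input they were 0.43 for *Flt1* (SE 0.37, FDR 0.338 in edgeR), 0.33 for *Kdr* (SE 0.31, FDR 0.374) and 0.18 for *Tek* (SE 0.35, FDR 0.680).

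CELF2-KI RIP and input were taken as paired by replicate number, judged by the correlation of their deviations (0.190, 0.197 and 0.311). The labels do not say whether same-numbered libraries share animals. Within these assumed pairs the receptors varied less. *Flt1* was higher in CELF2-KI RIP than in the input of the same number by 0.31, 0.67 and 0.25 on the log2 scale, and *Kdr* by 0.45, 0.18 and 0.40. All 3 pairs thus lay above 0 for both genes, as they did for *Pecam1* and *Tek*, 4 of the 10 genes in all, where 46.8% of all tested genes had 3 higher pairs. In *Cldn5*, *Cdh5*, *Slco1c1*, *Pdgfrb* and *Rgs5* all 3 pairs lay below 0, 5 of the 10 genes against 35.5% of all tested genes. With the replicate number as a block the log2 fold change over input was 0.41 for *Flt1* (SE 0.18, FDR 0.0762 in edgeR) and 0.34 for *Kdr* (SE 0.13, FDR 0.0570), and neither was called. The block was fitted over all 9 libraries, IgG RIP included. The signs of *Flt1*, *Kdr*, *Pecam1* and *Tek* over input turned under some alternatives, with the lowest values at -0.05, -0.14, -0.20 and -0.30.

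*Slco1c1* encodes OATP1C1, which carries thyroxine across the blood-brain barrier and is made by astrocytes too. It was at 13.4, 15.1 and 11.2 CPM in CELF2-KI RIP, against 7.07, 28.8 and 11.3 CPM in IgG RIP and 21.4, 33.3 and 22.0 CPM in input. All CELF2-KI RIP libraries lay below all inputs, and of the IgG RIPs replicate 2 lay among the inputs and replicate 1 below all other libraries. The log2 fold change was -0.95 over input (SE 0.42, FDR 0.0763 in edgeR) and -0.23 over IgG RIP (SE 0.43, FDR 0.682). Without IgG RIP 2 the value over IgG RIP turned to 0.54 (SE 0.28, FDR 0.133 in edgeR). With the replicate block the value over input was -0.91 (SE 0.30, FDR 0.0316 in edgeR), not a call. With only the 6 CELF2-KI RIP and input libraries in the fit it was -1.17 (FDR 0.000875 in edgeR) and called. Without IgG RIP 2, *Slco1c1* was also called lower in the IgG RIPs than in input, at -1.49 (FDR 0.00513 in edgeR), where the value with all 9 libraries was -0.72 (SE 0.42, FDR 0.197).

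The 2 pericyte genes were not called. *Pdgfrb* encodes the receptor through which pericytes are recruited to vessels, and fibroblasts make it too. *Pdgfrb* was at 93.3, 91.9 and 118 CPM in CELF2-KI RIP, against 100 (replicate 1), 135 and 141 CPM in IgG RIP and 93.9, 116 and 131 CPM in input. Its conditions overlapped, with log2 fold changes of -0.32 against IgG RIP (SE 0.17, FDR 0.149 in edgeR) and of -0.17 against input (SE 0.17, FDR 0.409). *Rgs5* encodes a regulator of G protein signalling that marks pericytes, and some neurons make it too. It was at 105, 75.5 and 92.4 CPM in CELF2-KI RIP, against 51.1, 65.5 and 75.9 CPM in IgG RIP and 113, 124 and 105 CPM in input. The IgG RIPs lay below all inputs, and the CELF2-KI RIPs overlapped with both, by a margin of less than 1 CPM on each side. *Rgs5* differed most between the controls, by -0.83 for IgG RIP over input (SE 0.17, FDR 0.00386 in edgeR), which passed the FDR but not 2-fold. Against IgG RIP, CELF2-KI RIP was at 0.50 (SE 0.17, FDR 0.0273 in edgeR), and against input at -0.33 (SE 0.17, FDR 0.115). Without replicate 1 in every condition, an alternative chosen after seeing the data, the value over IgG RIP was 0.24 (FDR 0.298 in edgeR).

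**Figure D2:**
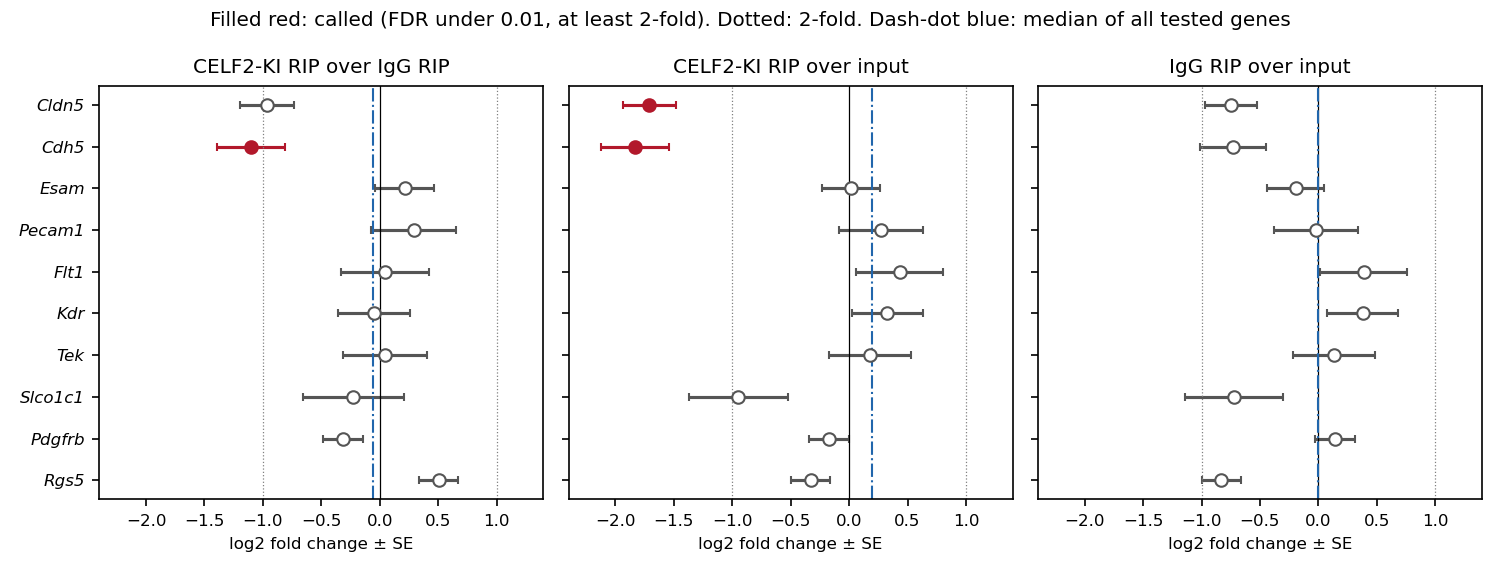
Log2 fold change (x axis) of each vascular gene (y axis) in the 3 comparisons, from edgeR over all 9 libraries, with its SE as the error bar. Filled red points are called, dotted lines mark 2-fold and the dash-dot line is the median of all tested genes. *Cdh5* is the only called gene over IgG RIP (-1.10), *Cdh5* and *Cldn5* are called over input (-1.83 and -1.71) and none is called for IgG RIP over input.

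Between the 2 controls, 0 of the 10 genes were called in either direction by edgeR's quasi-likelihood test or DESeq2's Wald test, where edgeR called 11.8% of all tested genes. At an unadjusted p under 0.05 in edgeR, 3 of the 10 were lower and 0 higher, where 24.2% of all tested genes were lower and 24.8% higher. These 3 were *Rgs5*, *Cldn5* and *Cdh5*, the last 2 with log2 fold changes of -0.74 (SE 0.22, FDR 0.0234 in edgeR) and -0.73 (SE 0.28, FDR 0.0622). Neither junction gene was called between the controls. The other 6 endothelial genes lay between -0.72 and 0.39 on the log2 scale between the controls, with *Flt1* at 0.39 (SE 0.37, FDR 0.430 in edgeR) and *Kdr* at 0.38 (SE 0.31, FDR 0.347) at the upper end.

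Replicate 1 was low for the endothelial genes in IgG RIP and input, and for some of them in CELF2-KI RIP. It was the lowest of the 3 libraries for 8 of the 8 endothelial genes in IgG RIP and in input, where this held for 30.6% and 29.4% of all tested genes. In CELF2-KI RIP it was the lowest for 5 of the 8, against 38.9% of all tested genes, and *Cldn5* was highest there. Of the 35 further endothelial genes, 26 were lowest in replicate 1 of IgG RIP, 30 in that of input and 15 in that of CELF2-KI RIP, the last near the share of all genes. In CELF2-KI RIP replicate 1 was also the lowest library for 11 of 14 neuronal genes. *Esam*, *Pecam1*, *Flt1*, *Kdr* and *Tek* were lowest in replicate 1 of all 3 conditions, that is 5 of the 10 vascular genes, where 4.09% of all tested genes had that order. The median difference of replicate 1 from the mean of the other replicates over the 8 endothelial genes, on log2(CPM + 0.5), was -0.52 in CELF2-KI RIP, -1.01 in IgG RIP and -0.69 in input. Over all tested genes it was -0.02, 0.03 and -0.00. This order was seen in the data and then counted, so it is a description. Among the lists written for comparison, the lowest value fell in replicate 1 of all 3 conditions for 9 of 35 further endothelial genes and 9 of 20 further mural genes (pericytes and smooth muscle). The same held for 7 of 33 genes of angiogenic signalling and 5 of 12 genes of fibroblasts and meninges. It held for 1 of 13 tested genes of microglia and macrophages, 1 of 6 tested erythroid genes, 1 of 14 neuronal genes and 0 of 12 genes of astrocytes and radial glia. What accounts for this order was not tested. Without replicate 1 in every condition, 1 of the 10 genes was lower over IgG RIP and 2 over input, the same counts as with all libraries. The gene called over IgG RIP was then *Cldn5* (-1.26, FDR 0.00235 in edgeR) in place of *Cdh5* (-1.24, FDR 0.0128).

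The table gives estimated counts for each RefSeq transcript, and the 10 genes have 27 rows. The program assigns reads that fit several transcripts of a gene by likelihood, and 18 of the 27 rows were listed at 0 in at least 1 library. Of these, 12 were above 100 counts in another library, so a row of a gene with several can drop to 0 in a library where the gene's sum does not. *Pecam1*, *Tek*, *Pdgfrb* and *Esam* all had such rows. Of the 21 rows tested, 1 was called over IgG RIP, 2 over input and 0 between the controls, where 6.34%, 5.46% and 2.53% of all 39137 tested rows were called in either direction. Both calls over input were the main rows of the junction genes, at -2.18 for *Cldn5* (NM_013805.4, SE 0.28, FDR 0.00236 in edgeR) and -2.30 for *Cdh5* (NM_009868.4, SE 0.34, FDR 0.00434). The call over IgG RIP was a row of *Pecam1* (NM_001305158.1) with 23, 57 and 79 counts in CELF2-KI RIP and 0 in each IgG RIP. Against a floor of 3 counts per library this was 19.0-fold higher, but that floor does not cover how reads were assigned between rows. IgG RIP 1 and IgG RIP 3 each had 100% of their *Pecam1* counts in 1 other row. The called row had 26, 106 and 21 counts in the deeper inputs, and the sum over the *Pecam1* rows did not differ detectably.

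In *Flt1*, *Pecam1* and *Tek* a row held a larger share of the gene in all 3 CELF2-KI RIPs than in all 6 controls, which was noticed after the values were seen and is a description. These were 3 of the 26 rows of genes with several rows, where 0 lay below all controls and 23 overlapped. The share of such rows over all genes was not computed. *Flt1* lies on chromosome 5 (147561604 to 147726438) and overlaps the noncoding *Gm35383*. Its curated row NM_010228.3 held 90.2%, 86.7% and 86.4% of the *Flt1* counts in CELF2-KI RIP 1, 2 and 3. The IgG RIPs gave it 57.7%, 60.3% and 66.3%, and the inputs 56.5%, 59.5% and 53.9%. The mean share exceeded that of IgG RIP by 26.3 percentage points and that of input by 31.1. Most of the rest went to the predicted model XM_006504803.3, at 9.83% to 12.4% in CELF2-KI RIP and 38.8% to 44.4% in input. In IgG RIP that model held 42.3% and 34.0% in replicates 1 and 2 and almost nothing in replicate 3, where another predicted model, XM_006504802.3, held 33.7%. On the count scale neither row was called, with a log2 fold change over input of 0.56 for NM_010228.3 (SE 0.45, FDR 0.548 in edgeR) and -1.91 for XM_006504803.3 (SE 1.42, FDR 0.504). The soluble form of the receptor arises from alternative 3' processing of *Flt1*, and the table does not pair its row names with protein forms, so the split is given by accession only. The *Pecam1* row NM_001305158.1 described above held 10.3% to 25.8% of its gene in CELF2-KI RIP, 0% in IgG RIP and 1.51% to 4.95% in input. The predicted *Tek* model XM_006502930.2 held 2.67% to 25.3% in CELF2-KI RIP, 0% in IgG RIP and at most 0.642% in input. It rested on 59, 24 and 8 counts in CELF2-KI RIP 1, 2 and 3, and had 16 in input 2. In *Kdr* the predicted model XM_011240817.2 was listed at 0% in all 3 CELF2-KI RIPs and in IgG RIP 1, and between 8.40% and 22.6% in the other 5 libraries.

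**Figure D3:**
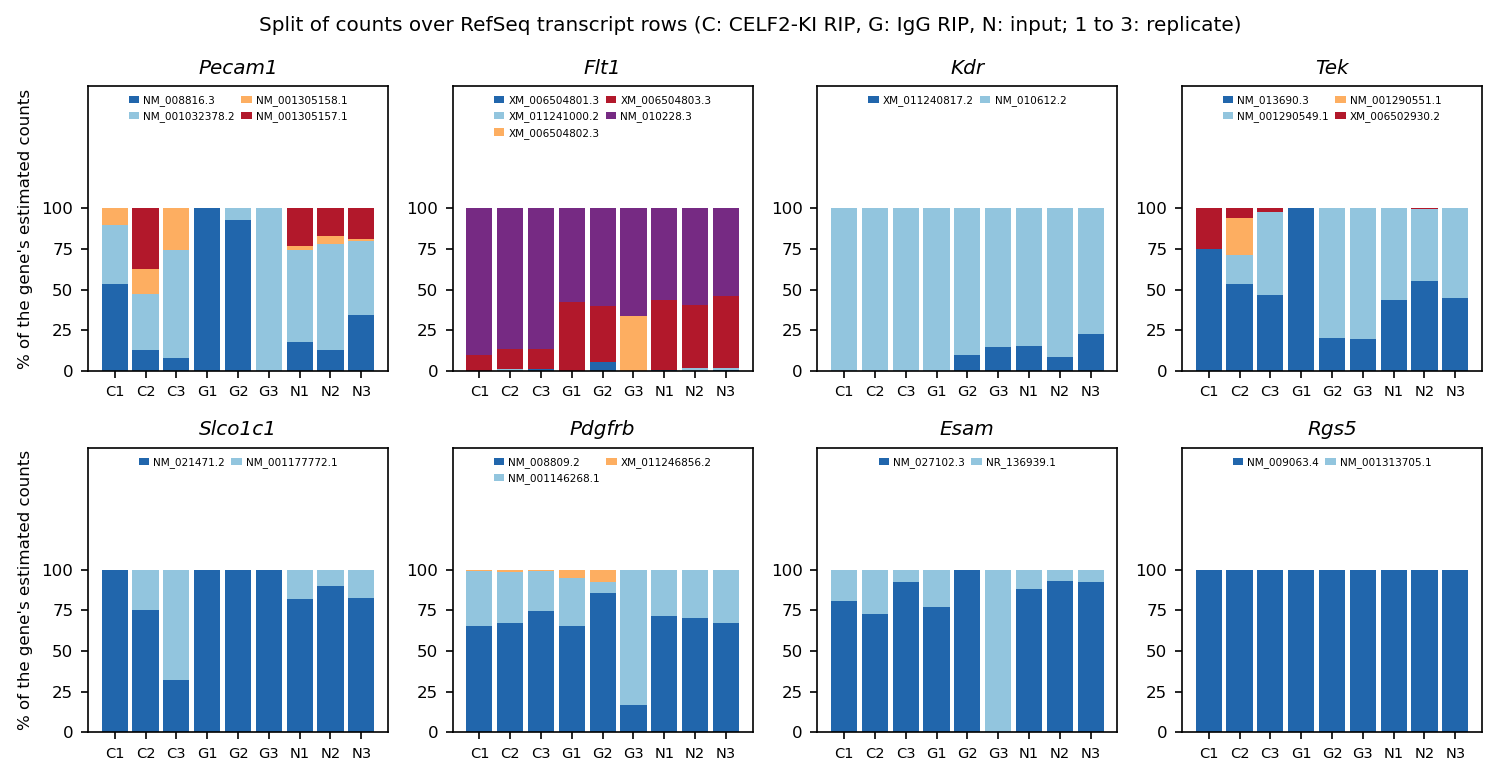
Share of a gene's estimated counts (y axis, percent) held by each of its transcript rows (colors) in the 9 libraries (x axis, C for CELF2-KI RIP, G for IgG RIP, N for input, with the replicate number). In *Flt1* the row NM_010228.3 holds 86.4% to 90.2% in CELF2-KI RIP and 53.9% to 66.3% in the controls, and the orange row of *Pecam1* and the red row of *Tek* are also larger in CELF2-KI RIP than in the controls. Other rows of *Pecam1*, *Tek*, *Esam* and *Pdgfrb* change from library to library within a condition.

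Wider vascular lists held calls in both directions. Of 35 other endothelial genes, 5 rose and 8 fell past the call thresholds against IgG RIP, and 3 rose and 8 fell against input, with medians of -0.36 and -0.38. Of all tested genes, 13.4% rose and 13.6% fell past them against IgG RIP, and 14.6% rose and 15.5% fell against input. Of the 3 that rose against input, *Abcb1a* (9.48, SE 2.41) was also called higher in IgG RIP than in input (10.58, SE 2.39). Lower than both controls were 7 of the 35, against 9.54% of all tested genes. Higher than both were 2 of the 35, where 1157 of all 15267 tested genes were. The largest falls over IgG RIP were those of *Egfl7*, a secreted protein of the vessel wall, and *Emcn*, the sialomucin endomucin. *Egfl7* was at 6.40, 6.31 and 7.41 CPM in CELF2-KI RIP, against 19.0, 31.3 and 31.5 CPM in IgG RIP and 19.4, 26.2 and 23.1 CPM in input, so that the CELF2-KI RIPs lay below all controls (-2.02 over IgG RIP, SE 0.22, FDR 4.35e-05 in edgeR). *Emcn* was below 1 CPM in each CELF2-KI RIP and between 1.44 and 4.73 CPM in the controls (-1.99, SE 0.46, FDR 0.00428 in edgeR). The largest rises were those of *Ly6a* (Sca-1), which reached at most 2.95 CPM, and *Slc7a5*. *Ly6a* was not called over input (1.08, SE 0.50, FDR 0.0838 in edgeR). It has relatives in its gene family, and whether they share its reads was not tested. *Slc7a5*, the large neutral amino acid transporter LAT1, which neurons also make, was at 973, 1170 (replicate 2) and 1096 CPM in CELF2-KI RIP, against 242, 321 and 343 CPM in IgG RIP and 411, 476 and 463 CPM in input. It rose by 1.84 on the log2 scale against IgG RIP (SE 0.15, FDR 1.07e-05 in edgeR).

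Of 20 other mural genes, 2 rose and 5 fell past the thresholds against IgG RIP, and 2 rose and 7 fell against input, with medians of -0.74 and -0.61. The shares of all tested genes that rose and fell were 13.4% and 13.6% against IgG RIP, and 14.6% and 15.5% against input. Of the 20, 5 were lower than both controls and 0 higher than both, against 1457 and 1157 of all 15267 tested genes. The muscle genes *Des* (desmin, -2.51 against IgG RIP, SE 0.55, FDR 0.00309 in edgeR) and *Acta2* (smooth muscle actin, -1.92, SE 0.44, FDR 0.00423) fell most, both from levels near or below 3 CPM in the controls. *Foxf2*, a transcription factor of brain pericytes, rose from 6.82, 11.2 and 11.5 CPM in IgG RIP to 25.4, 39.6 and 30.3 CPM in CELF2-KI RIP (1.70, SE 0.24, FDR 0.000218 in edgeR), and its inputs lay between them at 13.5, 16.0 and 18.4 CPM. Over input *Foxf2* was at 0.99 (SE 0.23, FDR 0.00395 in edgeR), just short of 2-fold and not called. *Ifitm1*, an interferon-induced membrane protein, had 8, 21 and 13 counts in CELF2-KI RIP and 0 in each IgG RIP, at least 4.88-fold higher against the floor of 3 counts per library, and it did not differ detectably from input (-0.67, SE 0.50, FDR 0.282 in edgeR).

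The 33 genes of angiogenic signalling, ligands and receptors that act on vessels but are made in part by neurons and glia, had a higher median than the markers, at 0.62 over IgG RIP and 0.46 over input. Of them, 5 rose and 2 fell against IgG RIP, where 13.4% of all tested genes rose and 13.6% fell. Against input 7 rose and 5 fell, where 14.6% of all tested genes rose and 15.5% fell. Of the 33, 2 were lower than both controls and 3 higher than both, against 1457 and 1157 of all 15267 tested genes. *Pdgfb*, the ligand of *Pdgfrb*, was at 41.8, 55.6 and 47.4 CPM in CELF2-KI RIP, against 12.8, 16.6 and 18.2 CPM in IgG RIP and 17.8, 20.9 and 20.1 CPM in input. Its lowest CELF2-KI RIP value exceeded the highest control (1.61 against IgG RIP, SE 0.17, FDR 3.74e-05 in edgeR, and 1.30 against input). *Vegfc*, a ligand of the lymphatic VEGF receptor and of *Kdr*, rose over IgG RIP by 1.46 (SE 0.25, FDR 0.000697 in edgeR). Over input *Vegfc* was at 0.81 (SE 0.24, FDR 0.0134 in edgeR), not a call. *Vegfb*, a ligand of *Flt1*, fell, from 15.6, 14.9 and 13.2 CPM in IgG RIP and 30.8, 29.4 and 32.3 CPM in input to 4.56, 5.24 and 3.93 CPM in CELF2-KI RIP (-1.67 over IgG RIP, SE 0.16, FDR 1.89e-05 in edgeR). *Acvrl1* (ALK1, an endothelial receptor of bone morphogenetic proteins) fell by 1.11 over IgG RIP (SE 0.30, FDR 0.00973 in edgeR). The receptors *Pdgfrb* and *Flt1* were not called, and the difference between each ligand and its receptor was not tested.

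Markers of other cells in the lysate moved in the same comparisons, and their part in the vascular values was not tested. In this paragraph calls are over IgG RIP, where edgeR called 13.4% of all tested genes higher and 13.6% lower. Of 14 neuronal genes, 7 were called higher, with a median of 0.89. Erythroid genes, 6 of 10 of which were tested, had 5 called lower and a median of -1.78, and their summed level was 93.8 to 96.5 CPM in CELF2-KI RIP, against 369 to 585 CPM in IgG RIP and 878 to 1136 CPM in input. Of 13 tested genes of microglia and macrophages, 5 were called lower and 1 higher, with a summed level of 193 to 245 CPM in CELF2-KI RIP, against 204 to 293 CPM in IgG RIP and 372 to 465 CPM in input. Genes of fibroblasts and meninges had 1 called in each direction of 12 and a median of -0.20, and those of astrocytes and radial glia had 2 called higher and 4 lower of 12 and a median of -0.40. The summed level of the 10 vascular genes overlapped between all 3 conditions, unlike that of the erythroid genes.

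**Figure D4:**
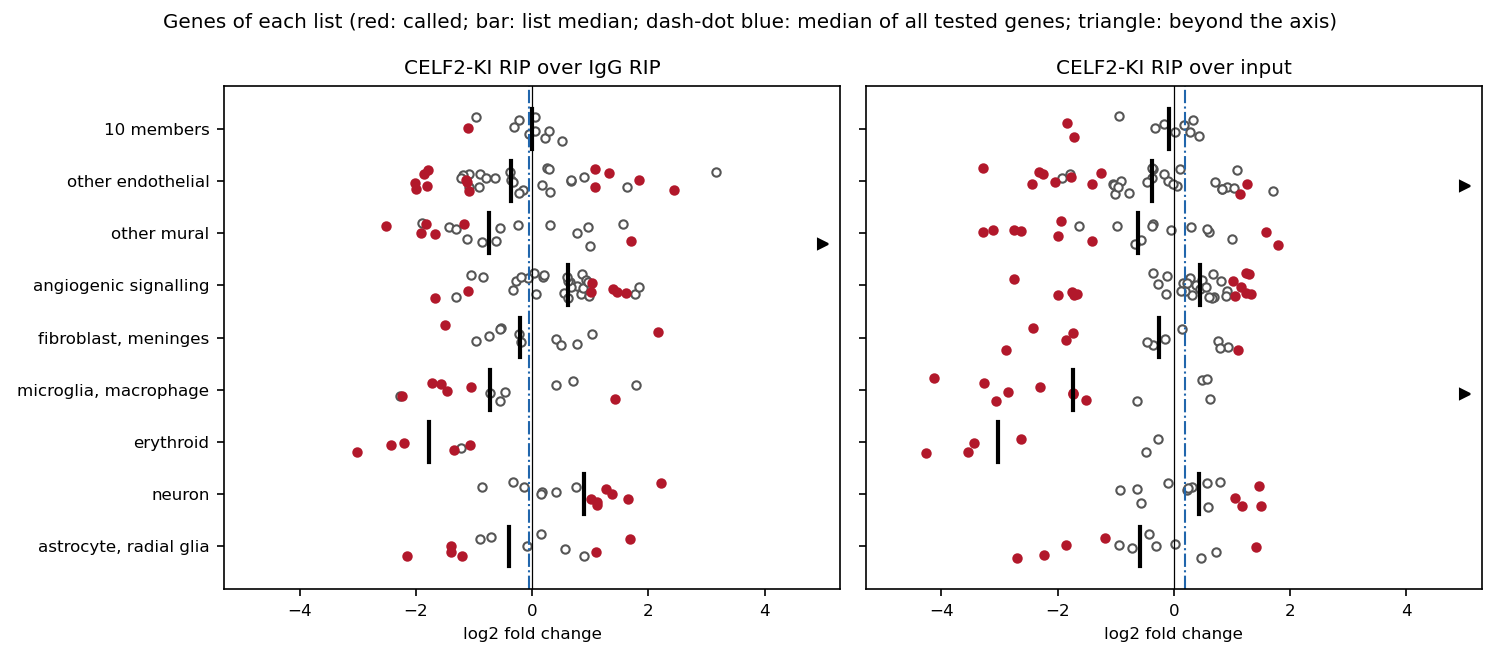
Log2 fold change (x axis) of each gene in the 10 vascular genes and 8 comparison lists (y axis), for CELF2-KI RIP over IgG RIP and over input. Red points are called, black bars are list medians, the dash-dot line is the median of all tested genes and triangles are values beyond the axis. The medians of the 10 vascular genes (-0.00 and -0.08) lie between those of the neuronal genes (0.89 and 0.44) and the erythroid genes (-1.78 and -3.03).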

How the data were processed

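Input, IgG RIP and CELF2-KI RIP RNA was rRNA-depleted and sequenced from directional libraries. The authors deposited estimated counts per transcript, made per the labels with kallisto 0.51.1 (build mm10) and normalized neither for depth nor for length. All 9 columns were used. An Ensembl transcriptome is stated in the paper, but the 107384 rows carry RefSeq accessions, of which 86722 matched a RefSeq gene table of GRCm38.p6 without regard to version. Rows without a match were left out and held between 9.24% and 43.46% of the counts of a library. Counts were summed per gene and rounded.

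Protein-coding genes that reached 0.5 CPM in 3 or more libraries entered edgeR 4.0.16 (R 4.3.3, limma 3.58.1), with TMM factors and quasi-likelihood tests in a model of 3 condition means, and transcript rows likewise. DESeq2 1.42.0, other scalings and filters, a replicate block and fits without single libraries were alternatives. The steps were tested on simulated data. The genes and lists were chosen with earlier results of these data known. Named genes are the 10 members and, per comparison list, up to 2 called with the largest rise and 2 with the largest fall over IgG RIP, of which those of vascular lists are described. Others were chosen after their values were seen. Deviations of same-numbered libraries from their condition's mean correlated across 9429 genes by 0.190, 0.197 and 0.311 between CELF2-KI RIP and input, so these were taken as paired. The labels state no such pairing. The correlations were -0.138, 0.051 and -0.097 between the 2 RIPs and 0.136, 0.116 and 0.012 between IgG RIP and input. Python 3.11.15, pandas 2.3.3 and matplotlib 3.10.9 were used. The floors cover counting error only, and reads carry no molecular identifiers.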

Additional observations from a re-analysis of the deposited data

How the results depend on the processing

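Of 30 values (10 genes in 3 comparisons), 24 were not called under any alternative, 0 were called higher under any, and the called genes kept their sign in all. The number of genes lower over IgG RIP, 1 with all settings as given, was 2 with DESeq2's size factors, total counts, upper quartile factors, TMM over coding and noncoding genes, no filter or DESeq2's Wald test, since *Cldn5* joined *Cdh5*. It was 0 with glmTreat against 2-fold and with only the 6 libraries compared. Leaving out single libraries gave 0 to 2 for this number (0 without CELF2-KI RIP 2, IgG RIP 2, IgG RIP 3 or input 3, and 2 without IgG RIP 1 or input 2). Over input the number was 0 with glmTreat, against 2. Between the controls it was 0 to 1 when single libraries were left out, 1 without IgG RIP 2. The median of the 10 genes moved to -0.38 over IgG RIP with total counts. Over input it moved to -0.54 with total counts, -0.32 with upper quartile factors, -0.47 with TMM over coding and noncoding genes and -0.30 with only the 6 libraries compared. These scalings also moved the median of all tested genes, by -0.37 over IgG RIP with total counts and over input by -0.46, -0.24, -0.39 and -0.24 in the same order, so that the difference of the 10 genes from all genes stayed between -0.26 and -0.27 over input. With single libraries left out, that difference over input ran from -0.42 without input 1 to -0.16 without CELF2-KI RIP 1. Over IgG RIP it then ran from -0.30 without IgG RIP 1 to 0.34 without IgG RIP 3. With total counts, 937 genes of all tested were called higher and 3421 lower over IgG RIP, against 2050 and 2069. The number of genes lower over IgG RIP was 1, with *Cldn5* in place of *Cdh5*, without CELF2-KI RIP 1, without replicate 1 in every condition, with version-matched rows and with the highest-count row. The replicate block changed no call of the 10 genes in any comparison (*Cdh5* over IgG RIP -1.07, FDR 0.000955 in edgeR). The block was fitted over all 9 libraries and so also paired IgG RIP by number. Between the 2 RIPs the correlations of deviations were -0.138, 0.051 and -0.097, so the block's FDR over IgG RIP rests on a pairing that was not shown. Transcript rows of the version in the gene table were not present for *Flt1*, *Kdr* and *Slco1c1*, which have no value under that alternative. The shallowest gene in the RIPs, *Slco1c1* at 113 to 291 counts in IgG RIP, also had the widest spread there relative to its mean.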
